A study of Mus musculus with 8 samples.

Results

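Solute carriers, the Slc genes, were followed in immortalized mouse pancreatic stellate cells (PSCs) exposed to medium conditioned by pancreatic cancer organoids. Members were the symbols of the count table that begin with Slc and a number. Of 201 such symbols 3 were set apart by the rule (Slc11a1, Slc40a1 and Slc39a14), and 198 of the 12160 genes of the table remained. They were grouped by what they carry: 35 mitochondrial Slc25 carriers, 32 amino acid carriers, 25 carriers of inorganic ions, 22 metal carriers, and 16 nucleotide sugar carriers. Further classes held 16 carriers of organic ions, peptides and neurotransmitters, 13 sugar carriers, 10 lipid and choline carriers, 8 vitamin and cofactor carriers, 4 monocarboxylate and dicarboxylate carriers, 4 nucleoside carriers and 8 others. A further 5 symbols share the prefix but name no transporter.

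PSCs were embedded in growth factor reduced Matrigel, fed growth medium for the first 4 days and the medium of their group for the next 4 days. In the shBrca2-CM group (n = 3) that medium came from KPC organoids, grown from mouse pancreatic tumours, in which a lentiviral shRNA silenced Brca2. In the shControl-CM group (n = 3) the same organoids carried a non-targeting shRNA. The control medium (n = 2) is called DMEM in the sample titles and the PSCs' own conditioned medium in the treatment label. It is here named control medium. Organoid media were collected in DMEM with a lower percentage of serum than the PSC growth medium. If the control was growth medium, serum and organoid products cannot be told apart in either comparison with it. The PSCs themselves carried no knockdown, and all groups are 1 immortalized line. Replicates were separate culture domes. The p-values rest on the spread between domes, with the estimate of that spread shared over all genes by the test. Each comparison was fitted alone, so the sizes of p-values are not to be compared between comparisons.

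Solute carriers move nutrients, metabolites, ions and metals across cell membranes, and several of them set how much of a nutrient enters a cell. Glucose enters stromal cells mainly through facilitative carriers of the Slc2 family, and the lactate made by glycolysis leaves through Slc16 monocarboxylate carriers. In pancreatic cancer, stellate cells are known to exchange lactate and amino acids with tumour cells. Carriers of the Slc25 family lie in the inner mitochondrial membrane and exchange ADP, ATP, phosphate and metabolites between matrix and cytosol. The class is named after this family, and holds Slc25a17, a carrier of peroxisomes.

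Depth differed with group: the shBrca2-CM libraries held 655996 to 1095534 counts, those with shControl-CM 1093609 to 1624392, and the control libraries 4623846 and 5476988. Levels are given as CPM, counts scaled to the size of the library, after TMM normalization over all 8 libraries. On this scale 3 counts, taken as the limit of detection, were worth 0.521 to 4.34 CPM. Solute carriers took a nearly constant 1.15% to 1.27% of the counts of every library. The 10 mesenchymal markers fixed for these cells were all in the table. Their sums were 3367 to 3932 CPM in the shBrca2-CM libraries, 3677 to 4781 in the shControl-CM libraries and 6984 to 8511 in the controls. The sum joins genes that moved in opposite directions. Against control medium Dcn was higher (log2 fold change 4.50 ± 0.21, adjusted p = 8.34e-07 with shControl-CM, and log2 fold change 3.56 ± 0.17, adjusted p = 5.70e-27 with shBrca2-CM). Vim was lower (log2 fold change -3.38 ± 0.25, adjusted p = 1.31e-05, and log2 fold change -2.68 ± 0.15, adjusted p = 1.07e-23, in the same order), as were Col1a1, Col1a2, Col3a1 and Sparc with both media. With shBrca2-CM, Dcn and Lum were called lower and Pdgfra higher than with shControl-CM. Of 8 epithelial markers 3 were in the table (59.3 to 94.1, 57.7 to 70.6 and 37 to 41.7 CPM in the same order). Of these, Krt18 and Muc1 were called higher with both conditioned media than with control medium, and Krt19 lower. Krt19 had means of 11.8, 2.82 and 24.8 CPM and was called higher with shBrca2-CM than with shControl-CM (log2 fold change 2.12 ± 0.52, adjusted p = 0.0632). Of 5 macrophage markers also 3 were in the table (13 to 26.6, 23.7 to 36 and 9.46 to 11.5 CPM). Epcam, Krt8, Ptprc and Adgre1 were not among the genes listed. The part of these markers in the results was not tested. In such bulk samples, fewer cells of a kind and less RNA per cell cannot be told apart.

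The promoters of Slc16a3 and Slc2a1, 2 of the 3 members whose calls below held in every fit that left out 1 library, are shown as the 250 bases before the transcript start on the plus strand (RefSeq, GRCm38.p6). They lie at chr11:120948817-120949066 for Slc16a3 and chr4:119108495-119108744 for Slc2a1. Capitals mark ACGTG, the core of the hypoxia response element, searched on both strands. The core also forms part of the E-box CACGTG, which neither window holds.
Slc16a3: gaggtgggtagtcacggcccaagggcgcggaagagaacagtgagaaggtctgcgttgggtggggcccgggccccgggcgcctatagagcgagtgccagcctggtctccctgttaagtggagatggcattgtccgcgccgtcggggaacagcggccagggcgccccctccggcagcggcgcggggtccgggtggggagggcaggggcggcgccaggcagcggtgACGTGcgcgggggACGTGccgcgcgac
Slc2a1: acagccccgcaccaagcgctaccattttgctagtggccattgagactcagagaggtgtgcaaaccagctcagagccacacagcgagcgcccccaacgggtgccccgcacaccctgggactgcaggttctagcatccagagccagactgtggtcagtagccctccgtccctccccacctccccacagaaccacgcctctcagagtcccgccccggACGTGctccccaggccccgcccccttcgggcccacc
The core stands 2 times in the Slc16a3 window and 1 time in the Slc2a1 window, and 16.6% of the 32851 promoters of the same length in the reference table hold it. The table holds 147 of the 198 members, of which 41 have the core in at least 1 promoter (27.9%, against 18.5% of all 27025 genes in the table). Of the 11 members called between the conditioned media 5 are in the table. The 2 shown have the core and the other 3, Slc24a3, Slc4a2 and Slc25a23, do not, while Slc7a2, the third member whose call held in every fit that left out 1 library, is among those not in the table. The match is a description of the letters and the motif was chosen with the values known.

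Between the conditioned media, a small set of solute carriers differed, and most of it was lower in PSCs exposed to shBrca2-CM. The set held the glucose carrier Slc2a1, the lactate exporter Slc16a3, the cationic amino acid carrier Slc7a2, the metal carriers Slc11a2 and Slc39a4, and the heme carrier Slc48a1, all lower with shBrca2-CM. Also lower were the lysosomal peptide and histidine carrier Slc15a3, the sodium/calcium exchanger Slc24a3 and the anion exchanger Slc4a2. The urea carrier Slc14a1 and the mitochondrial carrier Slc25a23 were higher. A gene was called when its adjusted p was under 0.1, its absolute log2 fold change over 0.5 and its mean normalized count over 5. Of 180 members tested, 11 were called (6.11%), beside 3.13% of all 11035 genes tested. Members called lower numbered 9, where the background was 1.55% of genes, and members called higher numbered 2, where it was 1.58%. The median log2 fold change of the members was -0.03, beside 0.03 over all genes. Scaled by total counts in place of TMM, which moved the all-gene median to 0.14, 11 members were again called, 7 lower and 4 higher. These shared 9 members with the set above, and Slc48a1 and Slc4a2 were not among them.

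Leaving out shBrca2-CM library 1, 2 or 3 gave 7, 6 and 4 called members, and leaving out shControl-CM library 1, 2 or 3 gave 21, 8 and 12. Slc16a3, Slc2a1 and Slc7a2 kept their calls in all 6 of these fits and in DESeq2's likelihood ratio test. The calls of Slc4a2 and Slc25a23 were lost in 5 of the 6 fits (all but the one without shControl-CM library 1), and that of Slc14a1 without any 1 of the shBrca2-CM libraries. The highest adjusted p of these fits was 0.378 for Slc4a2, 0.29 for Slc25a23 and 0.224 for Slc14a1. In DESeq2's test 8 members were called, all lower. Slc14a1 and Slc25a23 were not called and Slc24a3 was given no adjusted p. Among the 169 members not called, the 95% interval of the log2 fold change lay within 1 of 0 for 62 and within 0.5 for 7. This interval multiplies the SE by a t value for the libraries of the fit alone, which makes it wider than that of the test. These counts are therefore on the low side. For the rest these libraries do not show whether a difference of more than 1 is present. The parts of depth and of the spread between domes in this were not tested.

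**Figure D1:**
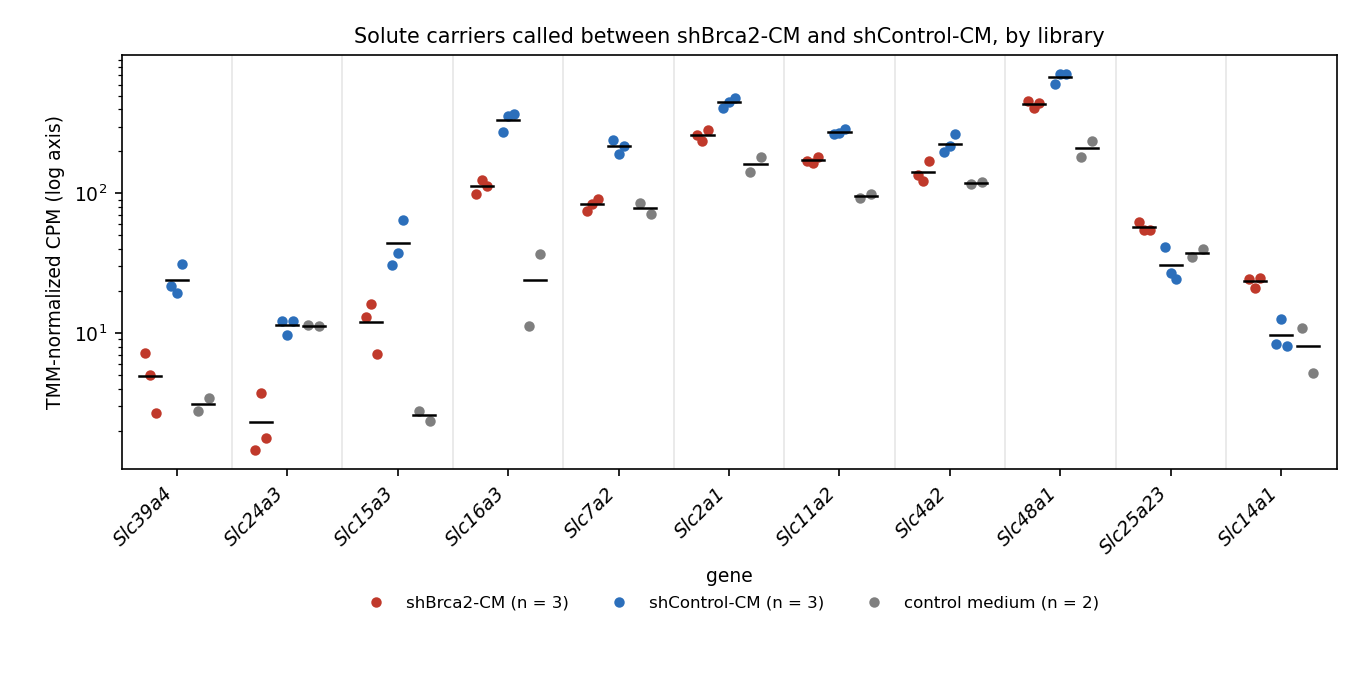
TMM-normalized CPM (log axis) of the 11 solute carriers called between shBrca2-CM and shControl-CM, in order of log2 fold change; points are libraries, red shBrca2-CM (n = 3), blue shControl-CM (n = 3), grey control medium (n = 2), and black bars are group means. For the first 9 genes every red point lies below every blue point, and for Slc25a23 and Slc14a1 every red point lies above.

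Carriers of lactate and glucose were among the members whose calls held in every fit that left out 1 library. Slc16a3, which encodes MCT4 and exports lactate from glycolytic cells, read 98.4, 126 and 114 CPM with shBrca2-CM, 275, 358 and 371 with shControl-CM, and 11.3 and 36.8 with control medium. The 3 groups did not overlap, with shControl-CM highest and control medium lowest. Between the conditioned media it was lower with shBrca2-CM (log2 fold change -1.54 ± 0.16, adjusted p = 3.01e-04). Against control medium it was higher with shControl-CM (log2 fold change 3.81 ± 0.41, adjusted p = 1.55e-04) and with shBrca2-CM (log2 fold change 2.27 ± 0.23, adjusted p = 2.62e-12). The control libraries differed, and without control library 1 or 2 these log2 fold changes were 3.19 or 4.87 with shControl-CM and 1.62 or 3.32 with shBrca2-CM. In DESeq2's likelihood ratio test the adjusted p of Slc16a3 against control medium was 1.24e-12 with shControl-CM and 0.00503 with shBrca2-CM. Slc2a1, which encodes the glucose carrier GLUT1, read 260.4, 239 and 287 CPM with shBrca2-CM, 411, 453 and 482 with shControl-CM, and 142 and 181 with control medium. Its groups stood in the same order, again without overlap. It was lower with shBrca2-CM than with shControl-CM (log2 fold change -0.75 ± 0.13, adjusted p = 0.00867). Against control medium it was higher with shControl-CM (log2 fold change 1.47 ± 0.17, adjusted p = 2.29e-04) and with shBrca2-CM (log2 fold change 0.71 ± 0.15, adjusted p = 9.48e-05). Slc2a3, the related carrier GLUT3, was low in all groups (means 11.1, 11.1 and 7.45 CPM in the order shBrca2-CM, shControl-CM, control medium) and was called in no comparison. Slc16a1, the monocarboxylate carrier MCT1, had 4, 2 and 1 counts with shBrca2-CM, 3, 3 and 7 with shControl-CM and 2 and 0 with control medium. Pooled, depth-scaled counts were 16.6 times as high with shControl-CM as with control medium (95% exact interval 3.76 to 152, counting error only, adjusted p = 0.013). This missed a call by its mean count, under 5. With shBrca2-CM against control medium the gene was too low to be tested, and between the conditioned media it was not called.

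Genes that work beside these carriers were read from a fixed list of 24 partners and regulators, of which 23 were in the table. Bsg, the chaperone that brings MCT4 to the membrane, was higher with shControl-CM (log2 fold change 0.83 ± 0.22, adjusted p = 0.016) and with shBrca2-CM (log2 fold change 0.73 ± 0.14, adjusted p = 1.25e-05) than with control medium. Without control library 1 the call with shControl-CM was lost (adjusted p = 0.192). Between the conditioned media Bsg was not called (log2 fold change -0.08 ± 0.15, adjusted p = 0.871). The hexokinase gene Hk1, whose product traps glucose in the cell, had means of 165, 178 and 158 CPM in the same order of groups. Neither Hk1 nor Hk2 was called in any comparison. Txnip, which promotes removal of GLUT1 from the surface, was lower with shControl-CM than with control medium (log2 fold change -0.61 ± 0.16, adjusted p = 0.0177; 0.17 without control library 1). It was not called with shBrca2-CM (log2 fold change -0.31 ± 0.15, adjusted p = 0.091) or between the conditioned media (log2 fold change 0.31 ± 0.16, adjusted p = 0.437). Mpc1 and Mpc2, the subunits of the mitochondrial pyruvate carrier, which bear no Slc symbol, were lower with both conditioned media. Mpc2 had means of 63 and 69.6 CPM with shBrca2-CM and shControl-CM and 155 with control medium. Its differences were called with shBrca2-CM (log2 fold change -1.29 ± 0.16, adjusted p = 2.63e-09) and with shControl-CM (log2 fold change -1.17 ± 0.20, adjusted p = 0.00221). Mpc1 rested on 2 to 8 counts in the conditioned libraries, and its call with shControl-CM was lost without shControl-CM library 2 or 3 or either control library (adjusted p up to 0.243). With all libraries thinned to 655996 counts its log2 fold change with shControl-CM turned to 0.11.

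Among the 28 amino acid carriers tested between the conditioned media, Slc7a2 alone was called. Slc7a2, which encodes CAT2 and takes up arginine and other cationic amino acids, read 75.2, 83.4 and 91.4 CPM with shBrca2-CM, 240.3, 191 and 220.0 with shControl-CM, and 85.7 and 70.7 with control medium. The shControl-CM libraries stood above all others, and the shBrca2-CM and control ranges overlapped. The gene was lower with shBrca2-CM than with shControl-CM (log2 fold change -1.35 ± 0.15, adjusted p = 5.13e-04) and higher with shControl-CM than with control medium (log2 fold change 1.47 ± 0.18, adjusted p = 3.09e-04). It was not called between shBrca2-CM and control medium (log2 fold change 0.10 ± 0.17, adjusted p = 0.663; 95% interval -0.43 to 0.64). Nos2, the inducible nitric oxide synthase that consumes arginine and is on the partner list, had 4, 4 and 5 counts with shBrca2-CM, 28, 19 and 29 with shControl-CM and 2 and 0 with control medium. It was lower with shBrca2-CM than with shControl-CM (log2 fold change -1.86 ± 0.36, adjusted p = 0.0181), a call lost without shBrca2-CM library 2 or 3 (adjusted p up to 0.125). Slc7a1, the other cationic amino acid carrier of the list, stood the other way, at 34.7, 36.1 and 36.4 CPM with shBrca2-CM and 32.7, 31.9 and 18.3 with shControl-CM, without being called (log2 fold change 0.40 ± 0.27, adjusted p = 0.576). Against control medium Slc7a1 was called lower with shControl-CM (log2 fold change -0.78 ± 0.27, adjusted p = 0.046), a call lost without either control library (adjusted p up to 0.26). The heavy chain Slc3a2, which pairs with several amino acid carriers, had means of 454 ± 51.1, 544 ± 79.4 (SD, n = 3) and 479 ± 46.4 CPM (SD, n = 2). Comparing the conditioned media, the 95% interval of its log2 fold change was -0.62 to 0.16.

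Metal and heme carriers made up 3 of the 9 lower calls. Slc11a2, which encodes DMT1 and carries ferrous iron, read 169, 164 and 183 CPM with shBrca2-CM, 267, 272 and 291 with shControl-CM, and 92.5 and 99.7 with control medium. The order was that of Slc2a1, shControl-CM highest and control medium lowest, without overlap. It was lower with shBrca2-CM than with shControl-CM (log2 fold change -0.66 ± 0.13, adjusted p = 0.0174; 0.134 without shBrca2-CM library 2). Against control medium it was higher with shControl-CM (log2 fold change 1.52 ± 0.16, adjusted p = 1.14e-04) and with shBrca2-CM (log2 fold change 0.85 ± 0.15, adjusted p = 6.60e-06). Slc48a1, which encodes the heme carrier HRG1, read 459, 408 and 441 CPM with shBrca2-CM, 605, 714 and 716 with shControl-CM, and 183 and 238 with control medium. Its groups were likewise separate. Between the conditioned media it was lower with shBrca2-CM (log2 fold change -0.61 ± 0.12, adjusted p = 0.0227), a call lost without shBrca2-CM library 2 or 3 or shControl-CM library 2 (adjusted p up to 0.185). Against control medium it was higher with shControl-CM (log2 fold change 1.68 ± 0.18, adjusted p = 1.31e-04) and with shBrca2-CM (log2 fold change 1.05 ± 0.15, adjusted p = 2.40e-08), and both calls held in every fit that left out 1 library. Slc39a4, which encodes the zinc importer ZIP4, had 5, 4 and 3 counts with shBrca2-CM, 34, 20 and 46 with shControl-CM and 16 and 16 with control medium. On the CPM scale these were 7.23, 4.98 and 2.66 CPM with shBrca2-CM, 21.8, 19.3 and 31.2 with shControl-CM, and 2.78 and 3.44 with control medium. It was the member with the lowest log2 fold change between the conditioned media (log2 fold change -2.33 ± 0.42, adjusted p = 0.0114; 0.103 without shBrca2-CM library 3). The shBrca2-CM and control ranges overlapped.

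The metallothioneins Mt1 and Mt2, which bind zinc and copper and are on the partner list, stood in the same order as these carriers. Mt2 read 7399, 6635 and 9110.1 CPM with shBrca2-CM, 15394, 17446 and 19612 with shControl-CM, and 1718 and 1549.9 with control medium. No library of a group overlapped with another group. Mt2 was lower with shBrca2-CM than with shControl-CM (log2 fold change -1.15 ± 0.14, adjusted p = 0.00104), as was Mt1 (log2 fold change -0.91 ± 0.15, adjusted p = 0.00734). Both genes were higher with each conditioned medium than with control medium. For Mt2 the difference was larger with shControl-CM (log2 fold change 3.41 ± 0.20, adjusted p = 2.70e-06) than with shBrca2-CM (log2 fold change 2.24 ± 0.14, adjusted p = 8.18e-21). Mt1, Mt2 and Nos2 were the 3 of 23 partners called between the conditioned media. The zinc exporter Slc30a1 and the zinc importers Slc39a1 and Slc39a8 were not called between the conditioned media (log2 fold changes 0.04, 0.14 and -0.39). Over the 21 metal carriers tested the median was -0.17.

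The remaining calls came from carriers of peptides, ions, urea and mitochondrial adenine nucleotides. Slc15a3, which carries histidine and small peptides out of lysosomes and endosomes and is known mainly from immune cells, read 13, 16.2 and 7.1 CPM with shBrca2-CM, 30.8, 37.7 and 64.5 with shControl-CM, and 2.78 and 2.36 with control medium. The groups did not overlap. Slc15a3 was lower with shBrca2-CM than with shControl-CM (log2 fold change -1.89 ± 0.38, adjusted p = 0.0211; lost without shBrca2-CM library 1 or 3, adjusted p up to 0.162). It was higher than with control medium in both groups (log2 fold change 4.07 ± 0.41, adjusted p = 9.65e-05 with shControl-CM, and log2 fold change 2.14 ± 0.45, adjusted p = 8.45e-05 with shBrca2-CM). The summed macrophage markers given above were also lowest with control medium and had overlapping ranges between the conditioned media. Of its 3 members Csf1r read 0, 1.24 and 3.55 CPM with shBrca2-CM, 7.05, 7.73 and 13.6 with shControl-CM and 2.43 and 1.93 with control medium. The conditioned media did not overlap in Csf1r, which was not called between them (log2 fold change -2.26 ± 0.67, adjusted p = 0.134) and was higher with shControl-CM than with control medium (log2 fold change 2.09 ± 0.45, adjusted p = 0.00674). Cd68 and Lyz2, the other macrophage markers, overlapped between the conditioned media (log2 fold changes -0.31 and 0.30), and against control medium Cd68 was called higher with both and Lyz2 with neither. The part of these markers in the Slc15a3 difference was not tested. Slc24a3 had 1, 3 and 2 counts with shBrca2-CM, 19, 10 and 18 with shControl-CM and 66 and 52 with control medium. The pooled, depth-scaled counts were 5.05 times as high with shControl-CM as with shBrca2-CM (95% exact interval 2.15 to 14.4, counting error only). Between these media the adjusted p of Slc24a3 was 0.0408, and the call was lost without shBrca2-CM library 1 or 3 (adjusted p up to 0.219). With control medium the scaled counts were 4.95 times as high as with shBrca2-CM (95% exact interval 2.21 to 13.8, counting error only, adjusted p = 1.93e-04). Slc4a2, a chloride and bicarbonate exchanger that helps set cell pH, read 135, 122 and 171 CPM with shBrca2-CM, 197, 219 and 264 with shControl-CM, and 117 and 122 with control medium. Slc4a2 was lower with shBrca2-CM than with shControl-CM (log2 fold change -0.63 ± 0.16, adjusted p = 0.08). In the other direction, Slc14a1, a urea carrier, read 24.6, 21.2 and 24.9 CPM with shBrca2-CM, 8.33, 12.6 and 8.15 with shControl-CM and 10.9 and 5.16 with control medium. It was higher with shBrca2-CM (log2 fold change 1.33 ± 0.32, adjusted p = 0.0576). Slc25a23, which exchanges ATP-Mg for phosphate across the inner mitochondrial membrane in a calcium-dependent way, read 62.2, 54.8 and 55 CPM with shBrca2-CM, 41, 27.1 and 24.4 with shControl-CM, and 35.1 and 40.0 with control medium. It too was higher with shBrca2-CM (log2 fold change 0.90 ± 0.23, adjusted p = 0.0817). In both, every shBrca2-CM library lay above the other 5 libraries, and both are among the calls that other fits lost. The replicate block ended the call of Slc14a1 (adjusted p = 0.1001), and thinning to 655996 counts ended those of Slc14a1, Slc24a3 and Slc25a23.

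By class, the called members were spread thinly: 1 of 12 sugar carriers tested, 1 of 4 monocarboxylate and dicarboxylate carriers, 1 of 28 amino acid carriers, and 2 of 21 metal carriers. The rest were 2 of 22 carriers of inorganic ions, 2 of 13 carriers of organic ions, peptides and neurotransmitters, 1 of 6 vitamin and cofactor carriers and 1 of 34 mitochondrial carriers. The share among all genes tested was 3.13%, and most classes are too small to be read against it. None of the 4 nucleoside, 16 nucleotide sugar or 10 lipid and choline carriers tested was called by edgeR or by DESeq2's test. Their unadjusted p was under 0.05 in 0, 3 and 2 members, where it was under 0.05 in 13.4% of all genes. Values of the conditioned media did not overlap in 44 of the 180 members tested, where 19.8% of all genes tested did not overlap.

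Against control medium the picture was far wider, and here solute carriers moved in both directions. With shControl-CM, 79 of 198 members were called, 51 higher and 28 lower. Of all genes, 37.1% were called, 18.2% higher and 18.9% lower. With shBrca2-CM, 77 of 196 members tested were called, 47 higher and 30 lower. Of all genes, 37.8% were called, 18.6% higher and 19.2% lower. The shares of called members were thus 39.9% and 39.3%, near those of all genes. The median log2 fold changes were 0.20 and 0.15 for the members beside -0.10 and -0.05 for all genes. With shControl-CM, values did not overlap with control medium in 124 of 198 members, beside 59.9% of all genes tested. With shBrca2-CM they did not overlap in 116 of 196 members, beside 57.4% of all genes tested. Both comparisons use the same 2 control libraries. The class counts that follow are to be read beside these shares of all genes, and nothing is called particular to a class. Left out in turn, control libraries 1 and 2 brought the count with shControl-CM to 38 and 40. With shBrca2-CM the counts without 1 library ran from 61 to 74. With shControl-CM 31 members, and with shBrca2-CM 47, kept their call in every such fit and in DESeq2's test.

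**Figure D2:**
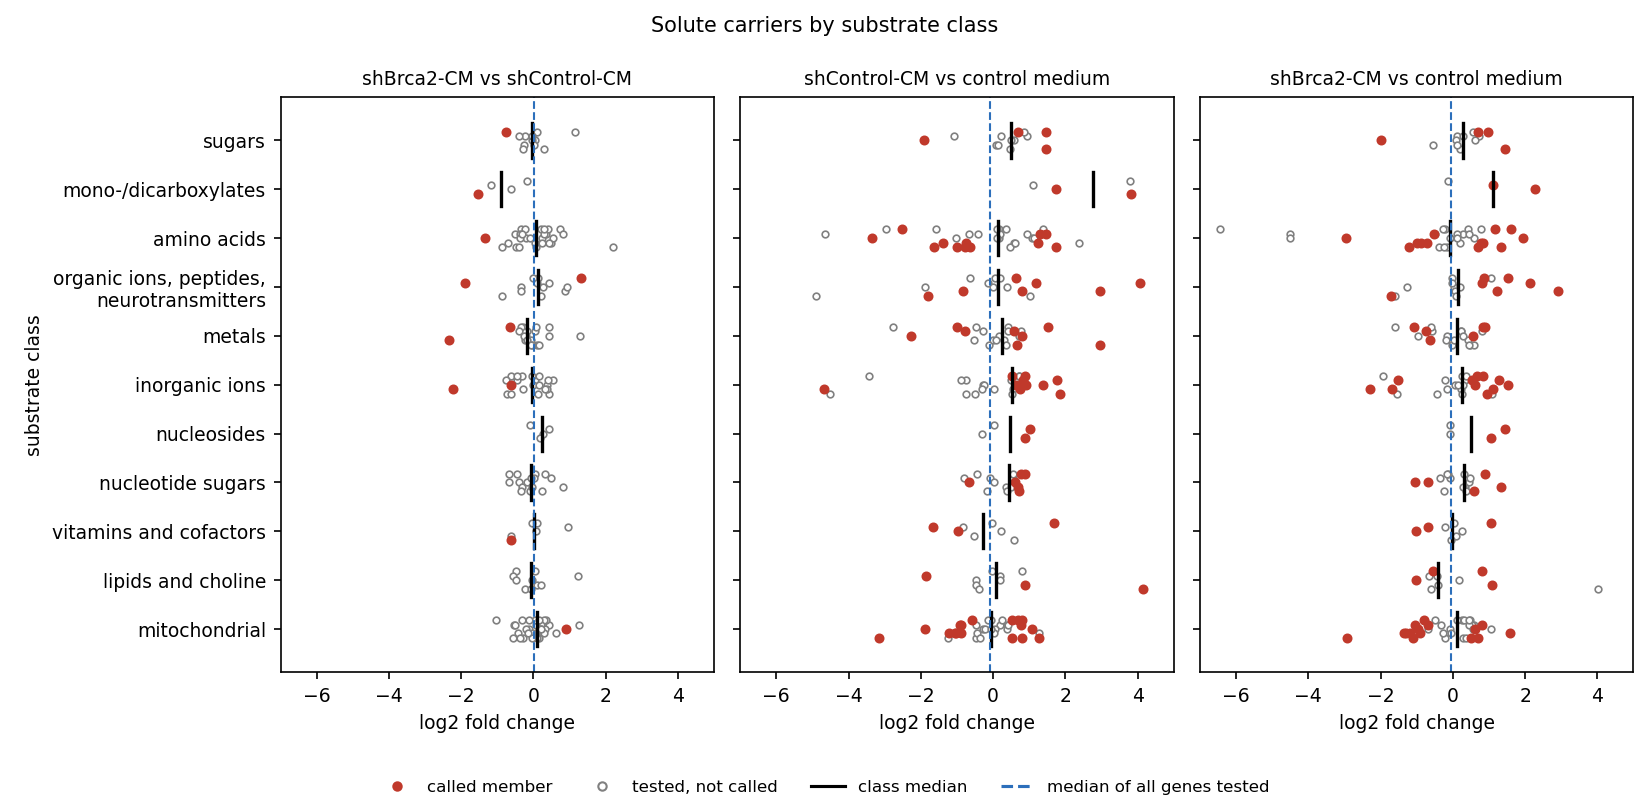
Log2 fold change of each tested solute carrier (points) by substrate class in the 3 comparisons; red points are called members, open points are not called, black ticks are class medians and the blue dashed line is the median of all genes tested in that comparison. Few red points stand in the left panel (11), and in both panels against control medium called members lie on either side of the all-gene median.

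Sugar and monocarboxylate carriers that were called against control medium were higher, with 1 exception. With each conditioned medium, 3 of 13 sugar carriers were called higher and 1 lower. In each, 2 monocarboxylate and dicarboxylate carriers were called higher, among them Slc16a3, and none lower. Beside Slc2a1, the intracellular hexose carrier Slc2a8 had means of 56, 47.2 and 29 CPM with shBrca2-CM, shControl-CM and control medium. It was higher with shBrca2-CM (log2 fold change 0.97 ± 0.20, adjusted p = 7.33e-05) and with shControl-CM (log2 fold change 0.69 ± 0.21, adjusted p = 0.0308). The latter call was lost without shControl-CM library 2 or either control library, adjusted p up to 0.181. Slc5a3, the sodium-coupled importer of the osmolyte myo-inositol, was the exception. It read 15.9, 19.9 and 11.5 CPM with shBrca2-CM, 31.4, 13.5 and 2.72 with shControl-CM, and 79.9 and 41.3 with control medium. Every conditioned library lay below both controls, and the shControl-CM libraries spread widely. Slc5a3 was lower with shBrca2-CM (log2 fold change -1.99 ± 0.27, adjusted p = 1.06e-08) and with shControl-CM (log2 fold change -1.91 ± 0.57, adjusted p = 0.0273), and this last call was lost without shControl-CM library 2 or control library 1 (adjusted p up to 0.321). Without shControl-CM library 1 the latter log2 fold change was -3.05.

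Slc6a6 and Slc6a12 were named as a large decrease and a large increase within their class, so their opposite directions follow from that choice. Slc6a6, the taurine carrier, read 62.2, 97.1 and 79.9 CPM with shBrca2-CM, 108, 73.4 and 44.8 with shControl-CM, and 289.9 and 237 with control medium. All 6 conditioned libraries lay below both controls, with overlapping ranges between the conditioned media. It fell with shBrca2-CM (log2 fold change -1.71 ± 0.16, adjusted p = 2.59e-13) and with shControl-CM (log2 fold change -1.80 ± 0.29, adjusted p = 0.00135). Slc6a12, the betaine and GABA carrier, read 28.9, 18.7 and 26.6 CPM with shBrca2-CM, 32.7, 20.3 and 21.7 with shControl-CM, and 4.52 and 1.72 with control medium. Here all 6 conditioned libraries lay above both controls. The gene rose with shBrca2-CM (log2 fold change 2.92 ± 0.36, adjusted p = 7.48e-10) and with shControl-CM (log2 fold change 2.95 ± 0.43, adjusted p = 8.23e-04). Between the conditioned media the log2 fold change was 0.00 ± 0.31 with overlapping ranges. Slc6a8, the creatine carrier, was higher with both, at means of 686, 583 and 375 CPM in the order shBrca2-CM, shControl-CM, control medium (log2 fold change 0.87 ± 0.14, adjusted p = 5.22e-07 with shBrca2-CM, and log2 fold change 0.63 ± 0.14, adjusted p = 0.0087 with shControl-CM). Without control library 1 the log2 fold changes of Slc6a12 were 3.798 with shBrca2-CM and 3.83 with shControl-CM. In fits without any 1 library, Slc6a6, Slc6a12 and Slc6a8 kept these calls. In the class of organic ions, peptides and neurotransmitters, 5 of 16 members were called higher and 2 lower with shControl-CM, and 6 higher and 1 lower with shBrca2-CM.

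Amino acid carriers were called about as often as all genes. With shControl-CM 4 of 32 were called higher and 8 lower. With shBrca2-CM 7 of 31 were called higher and 6 lower. These are 37.5% and 41.9% of the class, beside 37.1% and 37.8% of all genes. Slc7a5, which encodes LAT1 and imports leucine and other large neutral amino acids, read 52.1, 70.9 and 63 CPM with shBrca2-CM, 44.8, 44.4 and 64.5 with shControl-CM, and 68.8 and 136 with control medium. The 2 control libraries lay farther apart from each other than the mean of either conditioned medium lay from theirs, and the shBrca2-CM range overlapped with them. It was called lower with shControl-CM (log2 fold change -0.997 ± 0.29, adjusted p = 0.0247) and with shBrca2-CM (log2 fold change -0.71 ± 0.20, adjusted p = 0.00294). Without control library 2 both calls were lost (adjusted p up to 0.345 and 0.639), and the former also without shControl-CM library 2. The glutamine carrier Slc1a5 (ASCT2) read 132, 123 and 131 CPM with shBrca2-CM, 93.5, 102 and 83.5 with shControl-CM, and 127 and 162 with control medium. Slc1a5 was lower with shControl-CM than with control medium (log2 fold change -0.64 ± 0.18, adjusted p = 0.0209, lost without control library 2, adjusted p up to 0.199). With shBrca2-CM it was not called (log2 fold change -0.16 ± 0.15, adjusted p = 0.433). The direct difference between the conditioned media in Slc1a5 was not called (log2 fold change 0.50 ± 0.15, adjusted p = 0.139). Slc38a2 (SNAT2), a glutamine and alanine carrier, was called in none of the comparisons (with shBrca2-CM against control medium log2 fold change -0.49 ± 0.14, adjusted p = 0.00269, under the fold threshold). Its shControl-CM libraries ranged from 181 to 591 CPM. Slc38a1 (SNAT1), a related glutamine carrier, had 6, 4 and 7 counts with shBrca2-CM, 14, 5 and 1 with shControl-CM and 92 and 67 with control medium. Slc38a1 was lower with shBrca2-CM (log2 fold change -1.22 ± 0.37, adjusted p = 0.00579) and with shControl-CM (log2 fold change -1.63 ± 0.53, adjusted p = 0.0388), the latter lost without shControl-CM library 2 or either control library (adjusted p up to 0.248). Without shControl-CM library 1 it was -2.64 on the log2 scale.

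Slc1a3, the glutamate and aspartate carrier GLAST, was scarce in the conditioned libraries, with 0, 1 and 5 counts with shBrca2-CM and 3, 3 and 1 with shControl-CM against 123 and 67 with control medium. The pooled, depth-scaled counts were 10.6 times as high with control medium as with shControl-CM (95% exact interval 5.05 to 26.8, counting error only, adjusted p = 7.99e-04). With shBrca2-CM the log2 fold change was -2.96 ± 0.49 (adjusted p = 1.11e-06), and -4.67 without shBrca2-CM library 3. Slc6a9, the glycine carrier GLYT1, was higher with both conditioned media, at 204, 184 and 257 CPM with shBrca2-CM, 251, 273 and 346 with shControl-CM, and 104 and 138 with control medium. All 6 conditioned libraries lay above both controls. Both differences were called (log2 fold change 0.85 ± 0.16, adjusted p = 1.22e-05 with shBrca2-CM, and log2 fold change 1.25 ± 0.20, adjusted p = 0.00134 with shControl-CM). The cystine and glutamate exchanger Slc7a11 had 4, 5 and 2 counts with shBrca2-CM, 8, 1 and 6 with shControl-CM and 7 and 7 with control medium. It was called higher with shBrca2-CM (log2 fold change 1.62 ± 0.69, adjusted p = 0.0558), lost without shBrca2-CM library 1 or 2 or control library 1 (adjusted p up to 0.267). Of the stress regulators on the partner list that act on amino acid carriers, Atf4 was called higher with shControl-CM (log2 fold change 0.51 ± 0.14, adjusted p = 0.0219; lost without shControl-CM library 2 or either control library, adjusted p up to 0.134). It was not called with shBrca2-CM (log2 fold change 0.28 ± 0.13, adjusted p = 0.0819). Chac1, a target of that stress response, was called higher with shBrca2-CM (log2 fold change 0.70 ± 0.17, adjusted p = 6.69e-04). It was not called with shControl-CM (log2 fold change 0.46 ± 0.20, adjusted p = 0.1). Ddit3, Asns and Nfe2l2 were called in no comparison. Nedd4, the ubiquitin ligase that removes several carriers from the membrane, was lower with shBrca2-CM (log2 fold change -1.05 ± 0.14, adjusted p = 4.97e-09) and with shControl-CM (log2 fold change -1.23 ± 0.17, adjusted p = 7.00e-04).

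**Figure D3:**
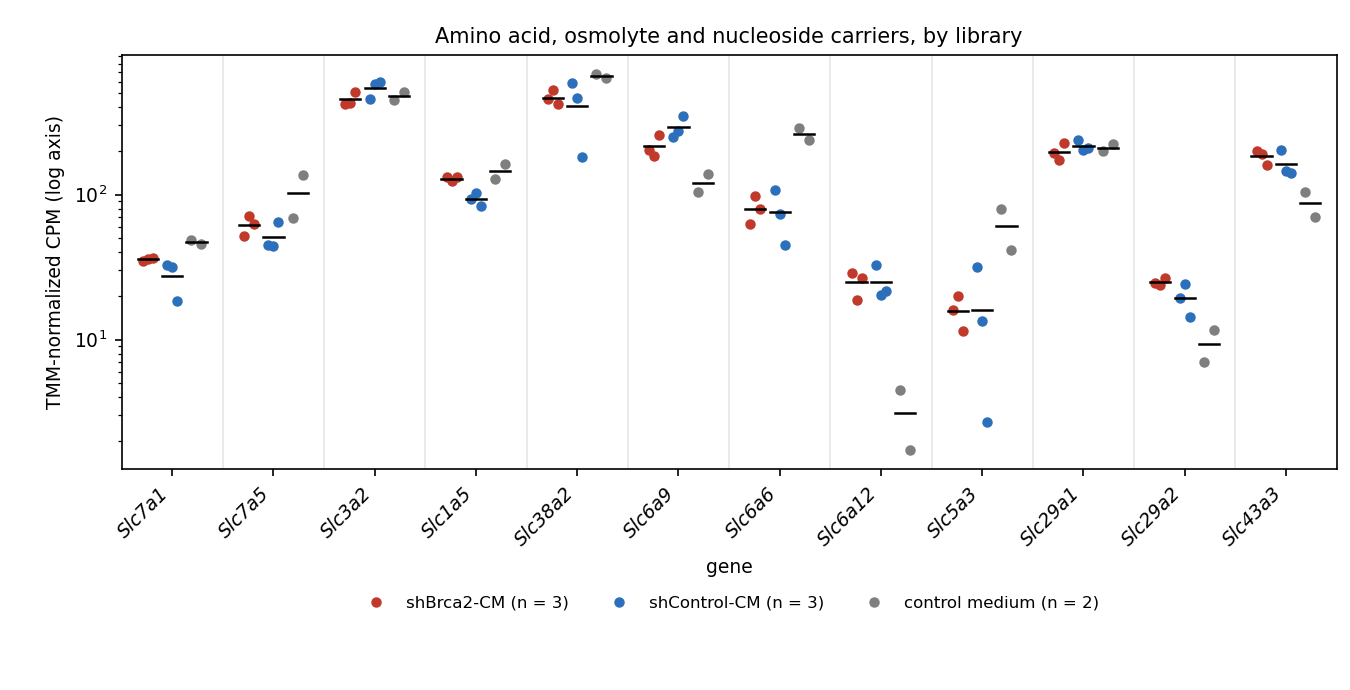
TMM-normalized CPM (log axis) of 12 amino acid, osmolyte and nucleoside carriers; points are libraries, red shBrca2-CM (n = 3), blue shControl-CM (n = 3), grey control medium (n = 2), and black bars are group means. Slc6a6 and Slc5a3 lie below both controls in all 6 conditioned libraries, Slc6a12, Slc6a9, Slc29a2 and Slc43a3 lie above them, and Slc29a1 and Slc3a2 overlap across groups.

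Nucleoside and nucleobase carriers called against control medium were higher, 2 of 4 with each conditioned medium and none lower. Slc43a3, which carries purine nucleobases, read 201, 189 and 159 CPM with shBrca2-CM, 202, 145 and 141 with shControl-CM, and 104 and 70.5 with control medium. It was higher with shBrca2-CM (log2 fold change 1.05 ± 0.16, adjusted p = 3.03e-07) and with shControl-CM (log2 fold change 0.89 ± 0.23, adjusted p = 0.0151, lost without control library 2, adjusted p up to 0.165). Slc29a2 (ENT2), an equilibrative nucleoside carrier, had means of 25, 19.2 and 9.28 CPM in the order shBrca2-CM, shControl-CM, control medium. It was higher with shBrca2-CM (log2 fold change 1.45 ± 0.29, adjusted p = 4.76e-05) and with shControl-CM (log2 fold change 1.03 ± 0.35, adjusted p = 0.0461). The latter call was lost without shControl-CM library 2 or control library 1, adjusted p up to 0.336. Slc29a1 (ENT1), the equilibrative carrier through which gemcitabine is known to enter cells, read 192, 174 and 226 CPM with shBrca2-CM, 238, 204 and 208 with shControl-CM, and 198 and 223 with control medium. Its ranges overlapped throughout. The 95% interval of its log2 fold change was -0.50 to 0.29 between the conditioned media, -0.47 to 0.53 with shControl-CM and -0.55 to 0.39 with shBrca2-CM against control medium. Among the nucleotide sugar carriers, which feed glycosylation in the Golgi, 5 of 16 were called higher and 1 lower with shControl-CM and 3 higher and 2 lower with shBrca2-CM. Slc35a1, the CMP-sialic acid carrier, was higher with both (log2 fold change 0.88 ± 0.21, adjusted p = 0.0109 with shControl-CM, and log2 fold change 0.90 ± 0.21, adjusted p = 3.38e-04 with shBrca2-CM).

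Mitochondrial carriers were called in both directions, 8 of 35 higher and 9 lower with shControl-CM, and 5 higher and 10 lower with shBrca2-CM. Of all genes 18.2% and 18.9%, and 18.6% and 19.2%, were called in these directions, beside which the class is too small to be set apart. The adenine nucleotide translocases, which exchange ADP for ATP, were the most heavily counted of those that fell. Slc25a4 (ANT1) read 574, 655 and 579 CPM with shBrca2-CM, 626, 788 and 585 with shControl-CM, and 1192 and 1318 with control medium. Slc25a5 (ANT2) read 305, 388 and 328 CPM with shBrca2-CM, 503, 403 and 303 with shControl-CM, and 798 and 877 with control medium. In both genes all 6 conditioned libraries lay below both controls and the conditioned media overlapped. Slc25a4 was lower with shBrca2-CM (log2 fold change -1.06 ± 0.13, adjusted p = 1.32e-09) and with shControl-CM (log2 fold change -0.92 ± 0.17, adjusted p = 0.00283). Slc25a5 was likewise lower with shBrca2-CM (log2 fold change -1.30 ± 0.14, adjusted p = 9.91e-12) and with shControl-CM (log2 fold change -1.06 ± 0.20, adjusted p = 0.00357). Slc25a3, the mitochondrial phosphate carrier that supplies the same ATP synthesis, read 861, 956 and 941 CPM with shBrca2-CM, 1046, 899.6 and 962 with shControl-CM, and 1008 and 881 with control medium. It overlapped across all groups, and the 95% intervals of its log2 fold change were -0.45 to 0.51 with shControl-CM and -0.46 to 0.38 with shBrca2-CM against control medium. Slc25a12, the aspartate and glutamate carrier aralar, was also lower with shBrca2-CM (log2 fold change -0.92 ± 0.22, adjusted p = 4.94e-04) and with shControl-CM (log2 fold change -1.02 ± 0.22, adjusted p = 0.0068). So was Slc25a17, a coenzyme A and adenine nucleotide carrier of peroxisomes (log2 fold change -1.17 ± 0.19, adjusted p = 5.48e-07, and log2 fold change -1.22 ± 0.22, adjusted p = 0.00268, in the same order).

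Slc25a32, which brings folate into mitochondria, had 2, 1 and 0 counts with shBrca2-CM, 3, 1 and 0 with shControl-CM and 54 and 41 with control medium. Pooled, depth-scaled counts were 9.28 times as high with control medium as with shControl-CM (95% exact interval 3.51 to 34.8, counting error only, adjusted p = 0.00441). Its fitted log2 fold change with shControl-CM, -3.17, ran from -4.38 without shControl-CM library 1 to -2.54 without shControl-CM library 3. With all libraries thinned to 655996 counts it was -1.55 and the call was lost (adjusted p = 0.266). They were 7.98 times as high as with shBrca2-CM (95% exact interval 2.65 to 39.4, adjusted p = 1.71e-04). The latter call was lost without either control library, through the mean count of its fit. Slc25a25 and Slc25a28 were among the members called higher with both media. Slc25a28, mitoferrin 2, which imports iron, read 192, 167 and 198 CPM with shBrca2-CM, 183, 160.4 and 199.7 with shControl-CM, and 111 and 99.7 with control medium. All 6 conditioned libraries lay above both controls, and it was higher with shBrca2-CM (log2 fold change 0.82 ± 0.15, adjusted p = 1.16e-05) and with shControl-CM (log2 fold change 0.77 ± 0.17, adjusted p = 0.00658). Slc25a37, mitoferrin 1, read 34.7, 36.1 and 39.1 CPM with shBrca2-CM, 63.4, 17.4 and 6.79 with shControl-CM, and 11.3 and 13.3 with control medium. Its shControl-CM libraries spread over a wide range that included both controls. It was called higher with shBrca2-CM (log2 fold change 1.59 ± 0.25, adjusted p = 3.51e-07) but not with shControl-CM (log2 fold change 1.28 ± 0.65, adjusted p = 0.157). The direct difference between the conditioned media was not called (log2 fold change 0.32 ± 0.56, adjusted p = 0.871). Slc25a25, a calcium-dependent ATP-Mg carrier like Slc25a23, had means of 32.5, 48.3 and 19.9 CPM in the order shBrca2-CM, shControl-CM, control medium. It was higher with shBrca2-CM (log2 fold change 0.69 ± 0.24, adjusted p = 0.015) and with shControl-CM (log2 fold change 1.27 ± 0.22, adjusted p = 0.00196).

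**Figure D4:**
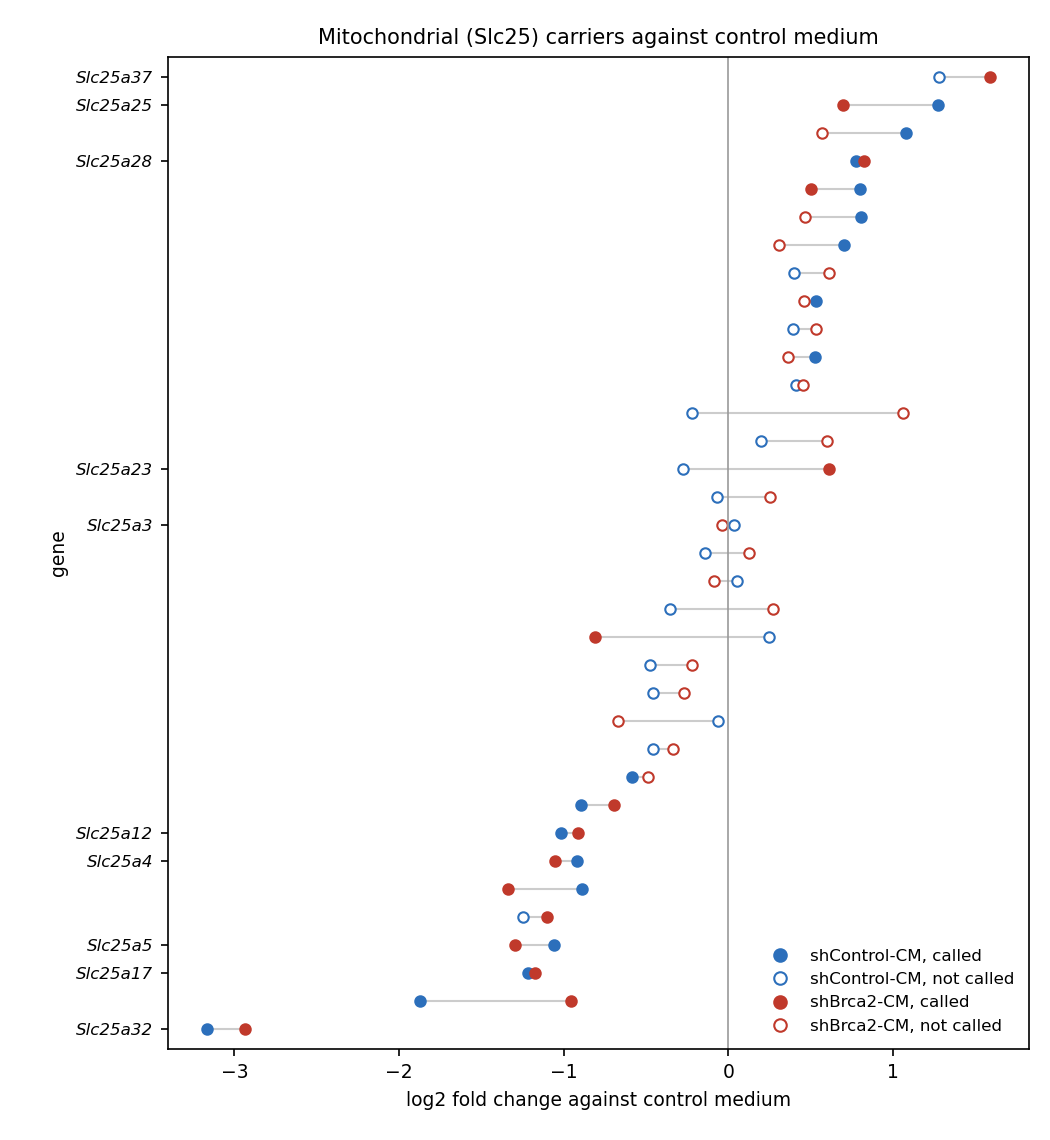
Log2 fold change against control medium of the 35 mitochondrial (Slc25) carriers, ordered by the mean of both values; blue points are shControl-CM, red points shBrca2-CM, filled points are called, and a grey line joins the values of a gene, which share the 2 control libraries. Only carriers described in the text are labelled by name. The 8 carriers called lower with both media, among them Slc25a4 and Slc25a5, lie left of 0 and among the 9 lowest rows, and Slc25a3 stands near 0.

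Of the metal carriers, 5 of 22 were called higher and 3 lower with shControl-CM, and 3 higher and 3 lower with shBrca2-CM. The copper importer Slc31a1 (CTR1) read 37.6, 47.3 and 34.6 CPM with shBrca2-CM, 42.9, 43.5 and 53 with shControl-CM, and 28.2 and 24.9 with control medium. It was called higher with shControl-CM (log2 fold change 0.80 ± 0.22, adjusted p = 0.0202) and with shBrca2-CM (log2 fold change 0.57 ± 0.22, adjusted p = 0.0317). The former call was lost without either control library (adjusted p up to 0.156) and the latter without shBrca2-CM library 2 or control library 2 (adjusted p up to 0.175). Slc39a6, a zinc importer, was lower with both, at means of 19.6, 20.1 and 40.1 CPM in the order shBrca2-CM, shControl-CM, control medium. It was called with shBrca2-CM (log2 fold change -1.06 ± 0.25, adjusted p = 3.52e-04) and with shControl-CM (log2 fold change -0.99 ± 0.27, adjusted p = 0.0204), the latter lost without either control library, adjusted p up to 0.166. Slc39a4 was called against control medium with shControl-CM (log2 fold change 2.95 ± 0.35, adjusted p = 2.66e-04) and not with shBrca2-CM (log2 fold change 0.57 ± 0.56, adjusted p = 0.442).

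Carriers of inorganic ions had 9 of 25 called higher and 1 lower with shControl-CM, and 8 higher and 3 lower with shBrca2-CM. Higher calls made up 18.2% and 18.6% of all genes and lower calls 18.9% and 19.2%. Slc9a8, a sodium and proton exchanger of the Golgi, read 47.7, 51 and 69.2 CPM with shBrca2-CM, 54.5, 48.3 and 52.3 with shControl-CM, and 17.4 and 22.4 with control medium. All 6 conditioned libraries lay above both controls. Slc9a8 was higher with shBrca2-CM (log2 fold change 1.53 ± 0.22, adjusted p = 3.07e-08) and with shControl-CM (log2 fold change 1.38 ± 0.23, adjusted p = 0.00174). Slc20a1, a sodium and phosphate carrier, was higher with shControl-CM (log2 fold change 0.82 ± 0.18, adjusted p = 0.00812) and not called with shBrca2-CM (log2 fold change 0.34 ± 0.20, adjusted p = 0.178). Slc12a2, the NKCC1 co-transporter of sodium, potassium and chloride, was called higher with shControl-CM (log2 fold change 0.89 ± 0.30, adjusted p = 0.0425, lost without either control library, adjusted p up to 0.269). It was not called with shBrca2-CM (log2 fold change 0.25 ± 0.36, adjusted p = 0.618), nor between the conditioned media (log2 fold change -0.61 ± 0.32, adjusted p = 0.463). Of its kinases on the partner list, Wnk1 was called higher with shBrca2-CM (log2 fold change 0.53 ± 0.18, adjusted p = 0.0162, lost without shBrca2-CM library 3, adjusted p up to 0.16). Neither Wnk1 nor the kinases Oxsr1 and Stk39 were called with shControl-CM (log2 fold changes 0.34, -0.36 and -0.88). Oxsr1, which acts below it, was called lower with shBrca2-CM (log2 fold change -0.74 ± 0.31, adjusted p = 0.047, lost without shBrca2-CM library 1 or 2 or control library 1, adjusted p up to 0.321). Stk39, the related kinase SPAK, had 1, 1 and 1 counts with shBrca2-CM and 24 and 32 with control medium. It was called lower there (adjusted p = 0.0113), a call lost without either control library. In the vitamin and cofactor class, 1 of 8 members, Slc48a1, was called higher with each conditioned medium, and 2 were called lower with each. The thiamine carrier Slc19a2 was lower with shControl-CM (log2 fold change -1.66 ± 0.34, adjusted p = 0.00499) and with shBrca2-CM (log2 fold change -0.69 ± 0.33, adjusted p = 0.0888), the latter lost without any 1 library (adjusted p up to 0.194). The biotin and pantothenate carrier Slc5a6 was lower with shControl-CM (log2 fold change -0.98 ± 0.36, adjusted p = 0.0608) and with shBrca2-CM (log2 fold change -1.01 ± 0.38, adjusted p = 0.0277). Its calls were lost without 4 of the 5 libraries and without shBrca2-CM library 2, respectively (adjusted p up to 0.287 and 0.154). With all libraries thinned to 655996 counts its log2 fold change with shControl-CM turned to 0.030. Slc44a2, a choline carrier, was higher with shBrca2-CM (log2 fold change 1.09 ± 0.17, adjusted p = 2.65e-07) and with shControl-CM (log2 fold change 0.88 ± 0.19, adjusted p = 0.00672, lost without control library 1, adjusted p up to 0.101).

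Further members of the larger classes stood near the limit of detection or moved with 1 medium. Slc1a6, the glutamate carrier EAAT4, had 2, 9 and 14 counts with shBrca2-CM, 2, 2 and 4 with shControl-CM and 59 and 60 with control medium. Slc1a6 was lower with shControl-CM than with control medium (log2 fold change -2.53 ± 0.45, adjusted p = 0.0025) and not called with shBrca2-CM (log2 fold change -0.28 ± 0.36, adjusted p = 0.572) or between the conditioned media (log2 fold change 2.19 ± 0.62, adjusted p = 0.111). Slc33a1, which carries acetyl-CoA into the endoplasmic reticulum, was also lower with shControl-CM, at means of 7.69, 3.14 and 11.7 CPM in the order shBrca2-CM, shControl-CM, control medium (log2 fold change -1.87 ± 0.41, adjusted p = 0.00727). Slc38a3 (SNAT3), a glutamine carrier, was higher with shBrca2-CM than with control medium (log2 fold change 1.94 ± 0.60, adjusted p = 0.00751), at means of 5.89, 3.53 and 1.62 CPM. In these 3 genes the calls held in every fit that left out 1 library, with a log2 fold change of Slc38a3 of 1.34 or 2.74 without control library 1 or 2. The call of Slc38a3 was lost with the replicate block (adjusted p = 0.134) and after thinning (adjusted p = 0.159). Thinning also ended the calls of Slc33a1 (log2 fold change -1.08, adjusted p = 0.294) and, through its mean count, Slc1a6 (log2 fold change -2.07, adjusted p = 0.0412). In all, 30 members had 3 counts or fewer in every library of at least 1 conditioned medium.

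Several calls given above against control medium were lost in other fits over all libraries. With shControl-CM, DESeq2's test did not call Slc29a2, Slc5a3, Slc5a6, Slc38a1, Slc12a2 or Mpc1. Thinning ended the calls of Slc25a28, Slc31a1, Slc12a2 and Atf4 beside those named above. With shBrca2-CM, Slc19a2, Slc5a6, Slc7a11, Slc31a1 and Oxsr1 were not called by DESeq2's test. Thinning there ended the calls of Slc19a2, Slc5a6, Slc38a1, Slc25a32, Slc7a11 and Mpc1, beside that of Slc38a3.

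Over the 23 partners and regulators in the table, 0 were called higher and 3 lower between the conditioned media, where 1.58% and 1.55% of all genes were. They numbered 5 higher and 4 lower with shControl-CM against control medium (18.2% and 18.9% of all genes). With shBrca2-CM they numbered 6 higher and 5 lower (18.6% and 19.2% of all genes). Of all 198 members, 94 were called in none of the 3 comparisons.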

How the data were processed

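RNA of immortalized mouse PSCs in 8 samples of 3 groups was sequenced from 3′ ends by a variant of MARS-seq. The authors deposited counts for 12160 genes, 1 column a sample and not normalized; the submitters' processing notes name bcl2fastq, cutadapt, STAR 2.4.2a, HTSeq, DESeq2 and the build mm10. A column headed as DMEM, 1 in all, matched no sample and was not used, so that the control group has 2 libraries. Samples were grouped by titles and the treatment label.

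Each pair of groups was fitted alone in edgeR 4.0.16 (R 4.3.3) by its quasi-likelihood test after TMM normalization, with Benjamini-Hochberg adjustment over all genes that reached 10 counts in the fit; the test was checked on simulated counts. The study's own thresholds (adjusted p under 0.1, absolute log2 fold change over 0.5, mean normalized count over 5) defined calls. Errors are SE for fold changes and SD for levels. Where every library of a group had 3 counts or fewer, pooled counts were compared with an exact interval, which covers counting error only. No lengths were used, so levels are not compared between genes.

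Genes named were the members called between the conditioned media, the 2 called members with the largest increase and decrease per class against control medium whose values did not overlap, and fixed lists of 26 carriers (Slc28a2 was not in the table) and 24 partners (23 were in the table); Slc6a8, Slc6a9, Slc25a12 and Slc25a17 were chosen after their values were seen. Some items are not reported here. Members, classes and lists were chosen with earlier results of these data known. Promoters were read from RefSeq (GRCm38.p6). Alternatives were DESeq2 1.42.0, other scalings, filters and thresholds, 1 fit over all groups, a replicate block, thinning and leaving out each library.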

Additional observations from a re-analysis of the deposited data

How the results depend on the processing

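Between the conditioned media the 11 calls became 8 with DESeq2's likelihood ratio test, 10 with the replicate block, 8 with libraries thinned to 655996 counts, and 5 at an adjusted p under 0.05 with a log2 fold change over 1; other scalings, filters and the fit over all groups gave 11 to 13. Leaving out 1 library gave 4 to 21. No called member changed sign under another scaling or without 1 library. Against control medium the stricter threshold gave 35 calls with shControl-CM and 35 with shBrca2-CM, and leaving out 1 library gave 38 to 95 with shControl-CM and 61 to 74 with shBrca2-CM. Thinning, which lowers the counts of the deeper control libraries most, gave 54 and 52 calls, of which 52 and 46 were among the original ones. Total-count scaling moved the all-gene median with shControl-CM from -0.10 to -0.21, with 45 members higher and 33 lower. Of 520 class medians under an alternative, 439 moved by less than the spread between libraries and 81 by more. Of 5949 alternative values of single genes, 5408 kept direction and side of the threshold, 450 lost the call, 89 gained one and 2 reversed, both with shControl-CM against control medium after thinning: Slc5a6 (log2 fold change 0.030) and Mpc1 (0.11), the cause was not tested. Replicate numbers did not pair the samples: deviations of same-numbered samples correlated at -0.06 to 0.15, and 2 of 6 conditioned samples correlated best with their own number. A fit with the replicate block gave 10, 76 and 62 calls in the order of comparisons above, shControl-CM before shBrca2-CM. Depth limits low carriers: 25 members had 3 counts or fewer in every shBrca2-CM library, 23 in every shControl-CM library and 3 in both controls.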

Other observations

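Other transporter families were read in the same way between the conditioned media. Of 24 ABC transporters tested, 2 were called (8.33%, beside 3.13% of all genes). Abcb1a, which encodes a P-glycoprotein that pumps drugs out of cells, had 4, 5 and 3 counts with shBrca2-CM, 29, 22 and 33 with shControl-CM and 12 and 2 with control medium (log2 fold change -2.10 ± 0.40, adjusted p = 0.0151, lost without shBrca2-CM library 3, adjusted p up to 0.114). Abcg2, another drug exporter, stood the other way, with 8, 6 and 8 counts with shBrca2-CM and 3, 2 and 4 with shControl-CM (log2 fold change 1.92 ± 0.52, adjusted p = 0.0987), and its call was lost without any 1 shBrca2-CM library or shControl-CM library 2 (adjusted p up to 0.318). Scaled for depth, Abcb1a had means of 4.89, 20.8 and 1.26 CPM in the order shBrca2-CM, shControl-CM, control medium. It was called higher than with control medium with shControl-CM (log2 fold change 3.92 ± 0.48, adjusted p = 3.20e-04) and with shBrca2-CM (log2 fold change 1.76 ± 0.69, adjusted p = 0.0365). Against control medium 8 of 28 ABC transporters were called higher and 1 lower with shControl-CM, and 8 higher and 2 lower with shBrca2-CM, where 18.2% and 18.9%, and 18.6% and 19.2%, of all genes were.

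Of the 3 Slco genes, organic anion carriers, 1 was called between the conditioned media (33.3%, beside 3.13% of all genes), and 3 genes are too few to read a share from. This gene, Slco2a1, which takes up prostaglandins, read 124, 119 and 136 CPM with shBrca2-CM, 59.6, 71.5 and 48.9 with shControl-CM and 70.4 and 83.2 with control medium. Every shBrca2-CM library lay above the other 5 libraries, and the gene was higher than with shControl-CM (log2 fold change 1.11 ± 0.18, adjusted p = 0.00481) and than with control medium (log2 fold change 0.73 ± 0.16, adjusted p = 1.65e-04), calls that held without any 1 library. Slco4a1 was higher with both conditioned media than with control medium (log2 fold change 1.71 ± 0.24, adjusted p = 7.01e-04 with shControl-CM; log2 fold change 1.15 ± 0.23, adjusted p = 3.57e-05 with shBrca2-CM). Of the 5 symbols that share the Slc prefix but name no transporter, Slc9a3r1, the scaffold NHERF1, was higher with shControl-CM (log2 fold change 1.30 ± 0.20, adjusted p = 0.00107) and with shBrca2-CM (log2 fold change 0.86 ± 0.17, adjusted p = 2.95e-05) than with control medium.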
